A study of Mus musculus with 9 samples.

Results

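The genes described here are the 45 genes of glycolysis and glycogen metabolism among the 56805 genes of an RNA-seq table of mouse skeletal muscle. They were chosen by name and role, as glucose transporters other than GLUT4, enzymes of glycolysis, lactate transporters and the enzymes and regulators that build and break down glycogen. All 45 were found, and all 45 passed the filter on low values, a normalized count of at least 10 in at least 3 libraries. RNA came from the tibialis anterior (TA) of the left leg, a muscle at the front of the shin made mostly of fast-twitch fibres. The groups were mice labelled Svil-KO, mice labelled Svil-Mut and wild-type (WT) mice, all of them males of 13 months, with 3 libraries in each group and the same batch label, 1, on every library. Svil encodes supervillin, a protein of the membrane skeleton that binds actin and myosin. The labels name no treatment, do not say which allele the Svil-KO or Svil-Mut mice carry, which strain the WT mice are or whether they are littermates, which limits what the groups can stand for. By its title, the series concerns how these mice respond to insulin and use glucose, a question to which the RNA of these 45 genes belongs.

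Glycolysis splits glucose into pyruvate in the cytosol and yields ATP without oxygen, and fast-twitch fibres rely on it for short, strong contractions. Glucose enters through transporters of the Slc2a family, is trapped by hexokinase and is committed at phosphofructokinase, which is activated by fructose 2,6-bisphosphate, a signal metabolite made and destroyed by the Pfkfb enzymes. Pyruvate is reduced to lactate by lactate dehydrogenase and lactate leaves or enters the fibre through monocarboxylate transporters. Muscle stores glucose as glycogen: glycogenin and glycogen synthase build the chains, a branching enzyme branches them, and glycogen phosphorylase, switched on by phosphorylase kinase during contraction, breaks them down. Targeting subunits bring protein phosphatase 1 to the glycogen particle, where it turns synthase on and phosphorylase off.

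Depth was 36234428 to 48762188 reads per library, with 19282 to 19988 genes detected. Svil was read first, as the altered gene. It had normalized counts of 7402, 6746 and 6656 in the Svil-KO libraries, 4615, 3939 and 4582 in the Svil-Mut libraries and 8686, 9373 and 8407 in the WT libraries. All Svil-KO and all Svil-Mut libraries lay below all WT libraries, at a mean of 78.6% and 49.6% of the WT mean. The difference passed the test in Svil-Mut (log2 fold change -1.01 ± 0.09 SE, adjusted p = 0.000941, limma with Benjamini-Hochberg adjustment) and not in Svil-KO (-0.35 ± 0.09, adjusted p = 0.997). A count over the whole gene does not show which exons are read, so it does not check a deletion within the gene. Fast glycolytic fibre markers were high in every library: their 9 genes, the fast myosin Myh4 first among them, summed to 5574087 to 6152146 normalized counts in Svil-KO, 6427522 to 6929948 in Svil-Mut and 5477024 to 5935531 in WT, as a TA sample should show. Svil-Mut replicates 2 and 4 stood apart from the other libraries, at 79.6 on the first and -79.5 on the second principal component of all tested genes, and a member's log2 fold change given here that lay beyond 0.25 of 0 is also given without any 1 library that moved it by over 1.5 times. Such bulk values do not separate fewer cells of a type from less RNA per cell.

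The promoters of 3 of the genes are shown as examples of a short motif that was frequent in the list. Slc2a1 (lower in Svil-KO) and Slc16a1 (higher in Svil-KO) are 2 of the genes that differed most between Svil-KO and Svil-Mut. Ldha, the abundant muscle lactate dehydrogenase, overlapped between these groups. Each promoter runs 5′ to 3′ from 250 bases before to 50 bases after the RefSeq gene start on GRCm38.p6. The capitals mark ACGTG, the core of the hypoxia response element, on either strand.
Slc2a1, chr4:119108495-119108794, plus strand: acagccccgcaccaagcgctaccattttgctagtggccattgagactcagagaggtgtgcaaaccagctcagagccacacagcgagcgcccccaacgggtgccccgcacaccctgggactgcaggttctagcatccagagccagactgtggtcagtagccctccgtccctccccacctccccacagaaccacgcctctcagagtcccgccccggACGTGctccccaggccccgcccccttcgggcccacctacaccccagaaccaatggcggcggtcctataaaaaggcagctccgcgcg
Slc16a1, chr3:104638414-104638713, plus strand: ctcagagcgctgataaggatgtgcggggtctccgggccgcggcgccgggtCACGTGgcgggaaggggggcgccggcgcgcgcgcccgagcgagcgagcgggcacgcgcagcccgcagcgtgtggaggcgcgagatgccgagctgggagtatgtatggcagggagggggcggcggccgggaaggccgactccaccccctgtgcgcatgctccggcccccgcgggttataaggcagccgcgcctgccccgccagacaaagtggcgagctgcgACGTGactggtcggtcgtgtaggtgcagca
Ldha, chr7:46845554-46845853, plus strand: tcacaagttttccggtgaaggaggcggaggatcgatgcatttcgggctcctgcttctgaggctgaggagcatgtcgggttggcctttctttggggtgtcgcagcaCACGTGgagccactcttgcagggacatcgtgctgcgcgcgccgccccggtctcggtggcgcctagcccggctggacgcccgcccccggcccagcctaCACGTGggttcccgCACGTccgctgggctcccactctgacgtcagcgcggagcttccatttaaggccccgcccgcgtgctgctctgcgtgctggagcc
The letters ACGTG on either strand were found 1 time in the Slc2a1 window, 3 times in the Slc16a1 window and 5 times in the Ldha window shown, with the palindrome CACGTG, the E-box, counted once on each strand. The other Ldha window in the table, at another annotated start, held it 0 times. Of the 45 genes, 42 had a window in the table, 59 windows in all. ACGTG was in 28 of the 59 windows (47.5%), against 19.6% of all 32851 mouse promoter windows of the same length. By gene it was in 24 of the 42. Some windows of the same gene overlap, so 1 motif can count more than once. The windows of all genes were not matched for base composition. The E-box CACGTG, which contains ACGTG, was in 9 (15.3%, against 7.15%), and the GC box GGGCGG on either strand was in 34 (57.6%, against 35.7%). The AP-1 motif TGANTCA was in 1 window (1.69%, against 7.81%) and the MEF2 motif, known from muscle genes, in 2 (3.39%, against 1.68%). Among the 8 members with the smallest p in Svil-KO against Svil-Mut, Slc2a1, Slc16a1 and Pfkfb3 had ACGTG in a window. Pfkfb1, Gys1, Ldhb, Gbe1 and Stbd1 did not. A link between these letters and the differences was not tested. The motifs are letters in a window, not sites shown to be bound.

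The 45 genes took a large share of the muscle's RNA. Their reads made up 6.56%, 7.50% and 6.80% of all reads in the Svil-KO libraries, 7.30%, 7.47% and 6.32% in the Svil-Mut libraries and 7.14%, 7.26% and 7.07% in the WT libraries. The 3 groups overlapped, and Svil-Mut replicate 4 was the lowest of the 9 libraries. Per kilobase of exon, the mean over the 9 libraries was highest for aldolase A (Aldoa), at 345209 normalized counts, which made it number 6 of the whole table on that scale. It was lowest, at 3.82, for Ppp1r3b, a phosphatase subunit best known in liver. The 8 most abundant members held 85.6% to 87.0% of the members' reads in every library. Several steps were dominated by their muscle isoform. On the scale of counts per kilobase summed over a gene family, Pfkm held 99.8% to 99.9% of the phosphofructokinase level, Eno3 99.7% to 99.8% of the enolase level, Pgam2 99.9% of the phosphoglycerate mutase level, Pygm at least 99.9% of the phosphorylase level and Hk2 97.0% to 98.6% of the hexokinase level over the 9 libraries. Other families were mixed: Pfkfb1 held 33.9% to 53.4% of the Pfkfb level, and among the phosphatase subunits Ppp1r3c held 62.0% to 83.4% and the muscle subunit Ppp1r3a 16.5% to 37.7%.

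**Figure D1:**
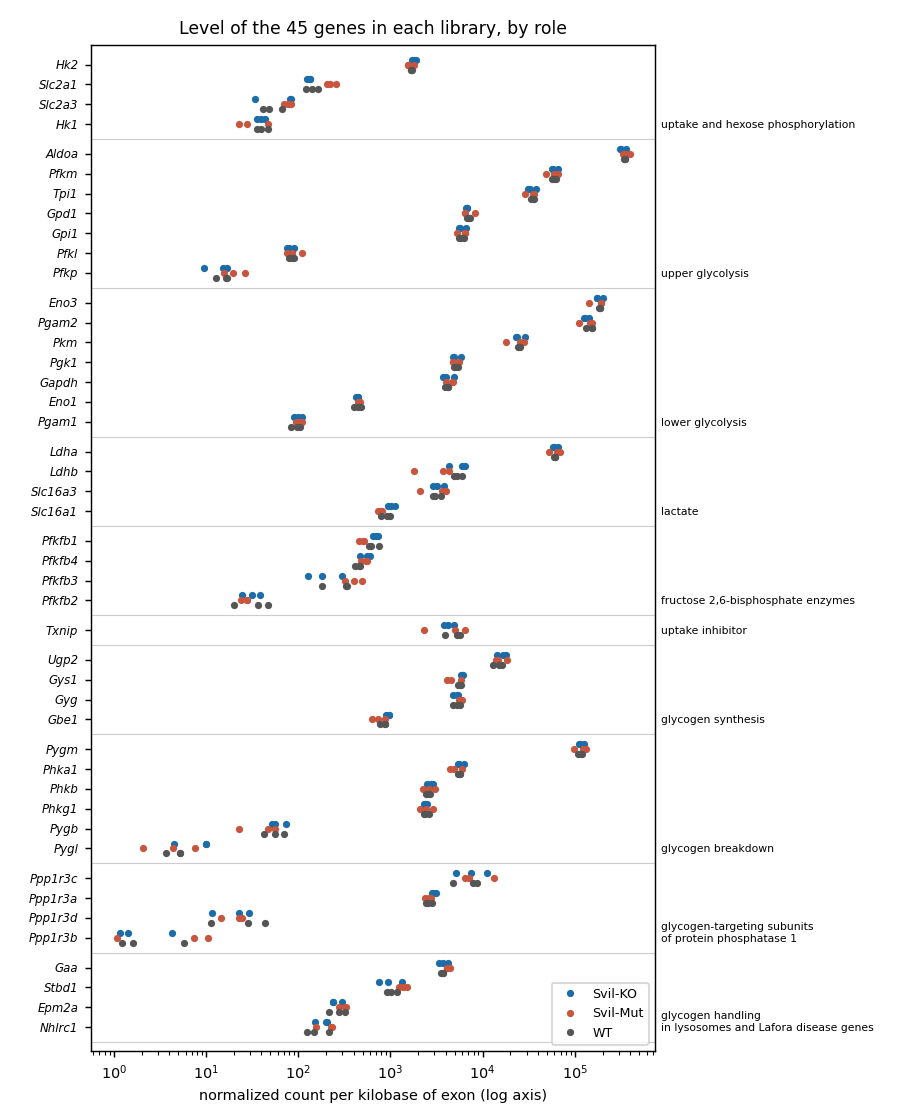
Level of each of the 45 genes, 1 row per gene grouped by role, as normalized count per kilobase of exon on a log axis. Each point is 1 library, blue for Svil-KO, red for Svil-Mut and grey for WT. For most genes the 3 genotypes lie on top of each other, and the rows differ far more than the genotypes do.

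None of the 45 genes passed the main test in any comparison. In Svil-KO against WT, limma with Benjamini-Hochberg adjustment over 15279 genes called 0 members, against 0% of all genes, and the smallest adjusted p of a member was 0.997. At an unadjusted p under 0.05 there was 1 member higher, Pfkfb4, against 2.36% of all genes, and there were 0 lower, against 1.75%. Libraries did not overlap for Gbe1, higher in Svil-KO (1 member, against 5.20% of all genes), and for Gpd1, lower in Svil-KO (1 member, against 5.45%).

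In Svil-Mut against WT, 0 members were called, against 0.0393% of all genes (6 genes), and the smallest adjusted p of a member was 0.213. At an unadjusted p under 0.05 there were 3 members higher, against 4.71% of all genes, and 2 lower, against 5.32%. Libraries did not overlap for 5 members that were higher in Svil-Mut, against 7.13% of all genes, and for 2 that were lower, against 6.81%. The higher ones were Slc2a1, Slc2a3, Pfkfb4, Stbd1 and Gaa, and the lower ones Pfkfb1 and Ldhb.

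In Svil-KO against Svil-Mut, 0 members were called, against 0.0458% of all genes (7 genes), and the smallest adjusted p of a member was 0.142. At an unadjusted p under 0.05 there were 6 members higher in Svil-KO, against 5.51% of all genes, and 3 lower, against 4.67%. Libraries did not overlap for 5 that were higher, against 7.55% of all genes, and for 3 that were lower, against 7.66%. The higher ones were Slc16a1, Pfkfb1, Gys1, Gbe1 and Ppp1r3a, and the lower ones Slc2a1, Pfkfb3 and Gyg.

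Other tools run on the recovered reads gave a partly different count. edgeR's quasi-likelihood test called 0 members in each comparison, against 0% of all genes for Svil-KO and WT, 0.0393% for Svil-Mut and WT and 0.0458% between the altered genotypes. DESeq2 called 0 members in Svil-KO against WT, against 0.0262% of all genes. It called Slc2a1 in Svil-Mut against WT (1 member, against 1.13% of all genes) and Slc2a1, Pfkfb1 and Slc16a1 in Svil-KO against Svil-Mut (3 members, against 1.54%). The comparisons share libraries, so they are not independent of each other.

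The list as a whole stayed near the middle of all genes. The median log2 fold change of the 45 genes was 0.022 in Svil-KO against WT, 0.0049 in Svil-Mut against WT and 0.0068 in Svil-KO against Svil-Mut, beside medians of 0.0031, -0.0046 and 0.0089 over all tested genes. In Svil-KO against WT, 40 of the 45 (88.9%) lay within 0.25 of 0 on the log2 scale, against 66.0% of all tested genes. For Svil-Mut against WT the number was 31 (68.9%), against 58.8% of all genes. It was 30 (66.7%) for Svil-KO against Svil-Mut, against 59.0%. These shares were not matched for abundance. Of the 45 genes, 24 had a mean of at least 10000, against 437 of all 15279 tested genes.

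**Figure D2:**
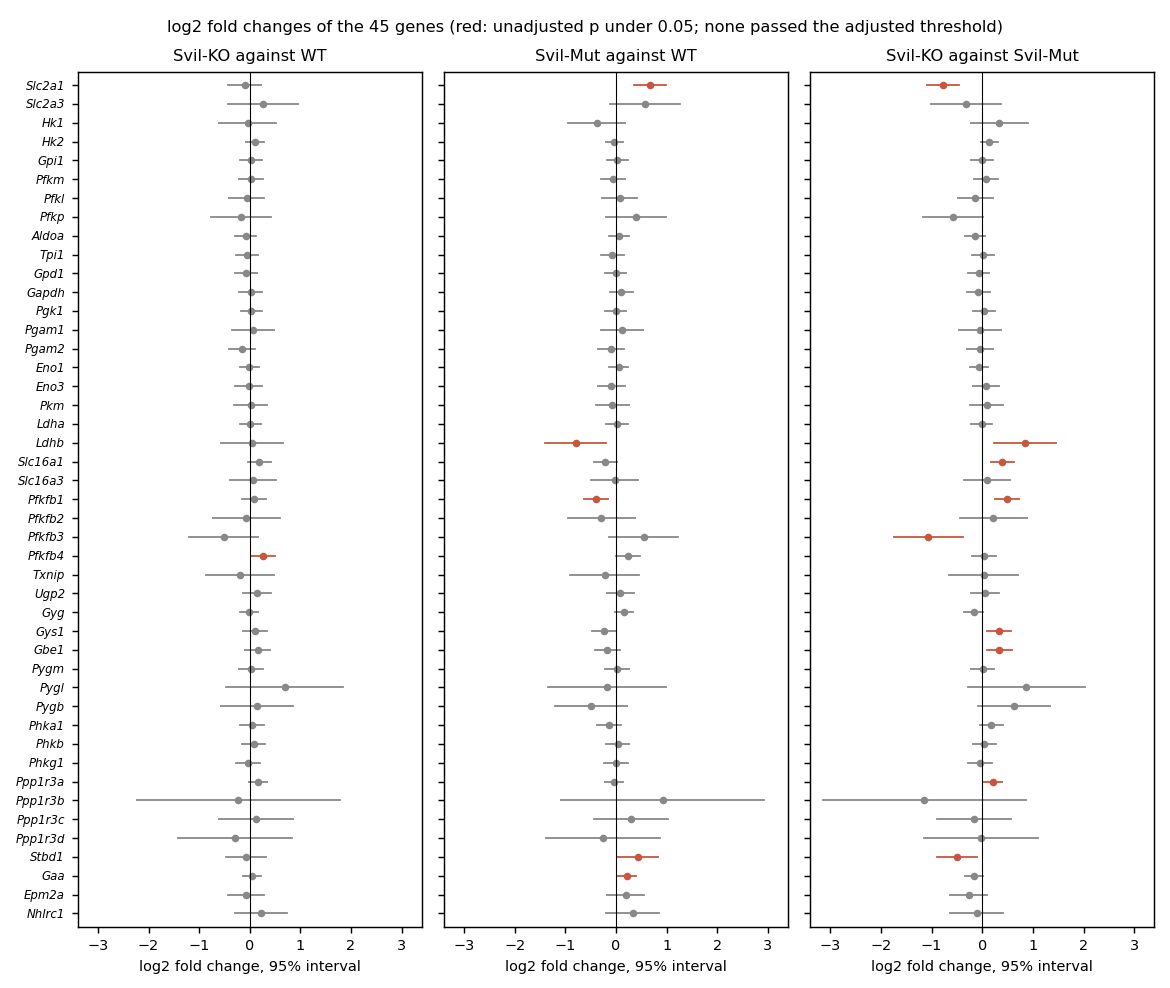
Log2 fold change of each of the 45 genes with its 95% interval from limma, in Svil-KO against WT (left), Svil-Mut against WT (middle) and Svil-KO against Svil-Mut (right). Red marks an unadjusted p under 0.05, and no member passed the adjusted threshold.

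Among the genes of glucose uptake and hexose phosphorylation, Slc2a1, the basal glucose transporter GLUT1 (chromosome 4, 119108711 to 119137983, plus strand, GRCm38), had the smallest p of the 45 genes in both comparisons with Svil-Mut. Its normalized counts were 473, 475 and 436 in the Svil-KO libraries, 772, 722 and 890.3 in the Svil-Mut libraries and 493, 575 and 428 in the WT libraries. Every Svil-Mut library lay above every Svil-KO and WT library, and the Svil-KO and WT libraries overlapped. The log2 fold change was 0.68 ± 0.14 (SE) in Svil-Mut against WT (95% interval 0.36 to 1.00, limma adjusted p = 0.213), -0.78 ± 0.14 in Svil-KO against Svil-Mut (-1.10 to -0.46, adjusted p = 0.142) and -0.10 ± 0.14 in Svil-KO against WT (adjusted p = 0.997). DESeq2 gave adjusted p = 0.00797 for Svil-Mut against WT and 0.00049 for Svil-KO against Svil-Mut, and over all 21 alternatives the adjusted p ran from 0.00797 to 0.532 and from 0.00049 to 0.42. GLUT1 is also abundant in human red blood cells, and whether this holds for the mice was not examined here. Red blood cell markers were higher in Svil-Mut than in WT for 6 of 7 tested genes. Their 8 genes summed to 10671, 19567 and 53571 normalized counts in the Svil-Mut libraries and 9117 to 13153 in WT, with Slc4a1 at 0 in 3 of the 9 libraries. Of the WT sums, Bpgm, the tested marker that was not higher in Svil-Mut, made up 4686 to 5005. Svil-Mut replicate 1 lay inside the WT range of the sums, and replicates 2 and 4 lay above it. The Slc2a1 counts of these 3 Svil-Mut libraries were 772, 722 and 890.3. The part of red blood cells in the Slc2a1 result was not tested.

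Slc2a3, the high-affinity transporter GLUT3, had 594, 601 and 248 in the Svil-KO libraries, 564, 504 and 608 in the Svil-Mut libraries and 304, 489 and 347 in the WT libraries. The Svil-Mut libraries lay above the WT libraries, while the Svil-KO libraries reached both the lowest value of all and values near the highest (0.58 ± 0.31 in Svil-Mut against WT, limma adjusted p = 0.581). Hk2, the insulin-responsive muscle hexokinase, had 10769, 11414 and 10167 in the Svil-KO libraries, 10764, 9302 and 9315 in the Svil-Mut libraries and 9886, 9934 and 10185 in the WT libraries. The 3 genotypes overlapped, and its log2 fold change was 0.11 in Svil-KO against WT, -0.03 in Svil-Mut against WT and 0.14 in Svil-KO against Svil-Mut. Without Svil-KO replicate 3 the first of these was 0.07. Hk1, the constitutive hexokinase, ranged over 193 to 407 with no separation of the groups. Txnip, an arrestin-like protein that holds back glucose uptake and rises with glucose in many cells, ranged over 7142 to 20273, and both ends of that range were Svil-Mut libraries, replicate 4 at the low end and replicate 1 at the high end.

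No enzyme of upper glycolysis passed the test. Aldoa, which splits fructose 1,6-bisphosphate, had 899308, 1052723 and 911485 in the Svil-KO libraries, 1048904, 1141245 and 965914 in the Svil-Mut libraries and 1014013, 1015739 and 994804 in the WT libraries. Pfkm, the muscle phosphofructokinase that commits glucose to glycolysis, had 193987, 221379 and 190474 in the Svil-KO libraries, 217178, 198751 and 161464 in the Svil-Mut libraries and 208971, 196477 and 189787 in the WT libraries. For both genes the groups overlapped, and the WT libraries spanned the narrowest range for Aldoa and Pfkm alike. In Svil-Mut against WT the 95% interval of the log2 fold change was -0.14 to 0.26 for Aldoa and -0.29 to 0.19 for Pfkm, and in Svil-KO against WT it was -0.28 to 0.12 and -0.22 to 0.26. Gpi1, the isomerase before phosphofructokinase, ranged over 34001 to 42739 and Tpi1, the triose isomerase, over 79045 to 104044. Gpd1, which diverts a triose to glycerol 3-phosphate, had 19594, 19909.6 and 19889 in the Svil-KO libraries, 18908, 24613 and 19219 in the Svil-Mut libraries and 21142, 21381 and 19987 in the WT libraries, so its Svil-KO libraries all lay just below the WT libraries (-0.07 ± 0.10, limma adjusted p = 0.997). The minor phosphofructokinases Pfkl and Pfkp ranged over 502 to 733 and 127 to 351. Pfkp shares 748 exon bases on the opposite strand with Pitrm1, which had a mean of 1615. Reads here carry no strand, so the Pfkp value is uncertain.

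Lower glycolysis, the steps that make ATP, also held no gene that passed, and all 7 genes lay within 0.25 of 0 on the log2 scale in each comparison. Eno3, the muscle enolase, had 299164, 354482 and 300684 in the Svil-KO libraries, 331669.7, 335953 and 244792 in the Svil-Mut libraries and 323086, 317510.2 and 325384 in the WT libraries. Pgam2, the muscle phosphoglycerate mutase, had 104597, 118497 and 107882 in the Svil-KO libraries, 122863, 129091 and 93046 in the Svil-Mut libraries and 112058, 127525 and 127709 in the WT libraries. Svil-Mut replicate 4 was the lowest library for both, and the groups overlapped. Pgam2 was the member of this group with the smallest p in Svil-KO against WT (-0.15 ± 0.12, limma adjusted p = 0.997, and -0.091 with quantile normalization). Pkm, pyruvate kinase, ranged over 89930.2 to 143984, again with Svil-Mut replicate 4 lowest. Pgk1, which makes the first ATP of the pathway, ranged over 10742 to 13099, Eno1 over 2186 to 2552 and Pgam1 over 167 to 219.9. Gapdh, often used as a reference gene, ranged over 15502 to 20065, but this count is uncertain. The table lists 81 genes with at least 95% identity to it over at least 100 bases, 77 of them pseudogenes, with a summed mean of 87.4% of its own count. Genes so similar to Pkm summed to 6.86% of its count and to Tpi1 1.32%, and reads may have been split or dropped between such copies. For Gpi1 the sum was 9.58%, but only 1 of its 5 similar genes was a pseudogene. The most abundant of the 5 was Wdr33, with a mean of 2286. These sums take the whole count of each gene, even where only a stretch is shared, so they do not measure how many reads were affected.

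Of the lactate genes, Ldhb and Slc16a1 stood out from Ldha and Slc16a3. Ldhb, the lactate dehydrogenase subunit of heart and of oxidative fibres (chromosome 6, 142490249 to 142507957, minus strand), had 9349, 6725 and 10155 in the Svil-KO libraries, 6790.0, 2804 and 5882 in the Svil-Mut libraries and 7737, 8220.3 and 9300.1 in the WT libraries. All 3 Svil-Mut libraries lay below all WT libraries, and Svil-Mut replicate 2 was the lowest of the 9. The log2 fold change was -0.80 ± 0.28 in Svil-Mut against WT (95% interval -1.41 to -0.19, limma adjusted p = 0.394), 0.84 ± 0.28 in Svil-KO against Svil-Mut (adjusted p = 0.364) and 0.04 ± 0.28 in Svil-KO against WT (adjusted p = 0.998). Without Svil-Mut replicate 2 the log2 fold change was -0.41 in Svil-Mut against WT and 0.45 in Svil-KO against Svil-Mut. Slow and oxidative fibre markers were also lower in Svil-Mut, where 0 of 9 were higher than in WT. They summed to 42461 to 80162 normalized counts in Svil-Mut and 111390 to 163582 in WT, with Svil-Mut replicate 2 lowest again. In Svil-KO 6 of 9 were higher than in WT, and the sums were 102573 to 162221. Most of each sum was Mb and Myh2. The part of these 9 markers in the Ldhb result was not tested. None of the 9 was at 0 in any library.

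Slc16a1, the lactate transporter MCT1 typical of oxidative fibres (chromosome 3, 104638668 to 104658462, plus strand), had 4507, 4125 and 5005 in the Svil-KO libraries, 3513, 3253 and 3572 in the Svil-Mut libraries and 4092, 3514 and 4412 in the WT libraries. The Svil-KO libraries lay above the Svil-Mut libraries without overlap, and the WT libraries overlapped with both. The log2 fold change was 0.40 ± 0.10 in Svil-KO against Svil-Mut (95% interval 0.17 to 0.63, limma adjusted p = 0.264), -0.21 ± 0.10 in Svil-Mut against WT (adjusted p = 0.529) and 0.18 ± 0.10 in Svil-KO against WT (adjusted p = 0.997). DESeq2 gave adjusted p = 0.0313 for Svil-KO against Svil-Mut, and over the 21 alternatives it ran from 0.0313 to 0.71. The smaller values against WT were 0.11 without Svil-KO replicate 4 and 0.09 without WT replicate 3 for Svil-KO, and -0.14 without WT replicate 4 for Svil-Mut. Ldha, the subunit of fast fibres, had 196763, 215689 and 193001 in the Svil-KO libraries, 210157, 228023 and 175356 in the Svil-Mut libraries and 204081, 197961 and 199530.0 in the WT libraries. Its groups overlapped, and its 95% interval in Svil-Mut against WT was -0.19 to 0.23. Slc16a3, the lactate exporter MCT4 of fast fibres, ranged over 11026 to 21186, with Svil-Mut replicate 4 at the low end and Svil-Mut replicate 2 at the high end.

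Of the 4 genes for the enzymes of fructose 2,6-bisphosphate, 2 had log2 fold changes above and 2 below 0 in Svil-Mut against WT, and none passed the test. Pfkfb1, the isoform of liver and muscle (chromosome X, 150588229 to 150643878, plus strand), had 2804, 2629 and 2912 in the Svil-KO libraries, 1852, 2051 and 2064 in the Svil-Mut libraries and 2357, 2481 and 3042 in the WT libraries. All Svil-Mut libraries lay below all Svil-KO and all WT libraries, and Svil-KO and WT overlapped. The log2 fold change was -0.39 ± 0.11 in Svil-Mut against WT (95% interval -0.63 to -0.16, limma adjusted p = 0.295), 0.48 ± 0.11 in Svil-KO against Svil-Mut (0.25 to 0.72, adjusted p = 0.184) and 0.09 ± 0.11 in Svil-KO against WT (adjusted p = 0.997). DESeq2 gave adjusted p = 0.00688 for Svil-KO against Svil-Mut, with 0.00688 to 0.548 over the 21 alternatives, and 0.0534 for Svil-Mut against WT, with 0.0534 to 0.579.

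Pfkfb3, the isoform with the strongest kinase activity, which is induced in many cells by hypoxia and by mitogens, had 2232, 1382 and 972 in the Svil-KO libraries, 2409, 3084 and 3695 in the Svil-Mut libraries and 2549, 2511 and 1367 in the WT libraries. It was higher in every Svil-Mut library than in any Svil-KO library, while the WT libraries overlapped with both. The log2 fold change was -1.06 ± 0.31 in Svil-KO against Svil-Mut (95% interval -1.75 to -0.38, limma adjusted p = 0.321), 0.55 ± 0.31 in Svil-Mut against WT (adjusted p = 0.597) and -0.51 ± 0.31 in Svil-KO against WT (adjusted p = 0.997). The WT comparisons of Pfkfb3 leaned on single libraries. In Svil-KO against WT its log2 fold change was -0.83 when Svil-KO replicate 1 was left out, -0.23 when Svil-KO replicate 4 was and -0.81 when WT replicate 4 was, and in Svil-Mut against WT it was 0.25 without WT replicate 4. Immediate early genes respond within minutes to stimulation or handling, and 12 of 12 were higher in Svil-Mut than in WT, the direction of Pfkfb3 there. In Svil-KO against WT, 9 of 12 were higher, while Pfkfb3 was lower. The sums of the 12 were 46012 to 66504 in Svil-Mut, 18534 to 29443 in Svil-KO and 18293 to 18721 in WT. Their part in the Pfkfb3 result was not tested. Fosb was at 0 in 4 of the 9 libraries, 1 of them Svil-KO and the others WT.

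Pfkfb4, an isoform first described in testis, had 2265, 2906 and 2715 in the Svil-KO libraries, 2685, 2646 and 2344 in the Svil-Mut libraries and 2023, 2269 and 2240.5 in the WT libraries. Its Svil-Mut libraries lay above the WT libraries without overlap, and the Svil-KO libraries were above them but for replicate 1, which lay inside the WT range. It was the member with the smallest p in Svil-KO against WT (0.27 ± 0.11, unadjusted p = 0.0332, limma adjusted p = 0.997), and its log2 fold change in Svil-Mut against WT was 0.23 ± 0.11 (adjusted p = 0.512). Pfkfb2, the isoform of heart, ranged over 146 to 344, and both ends of that range were WT libraries.

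**Figure D3:**
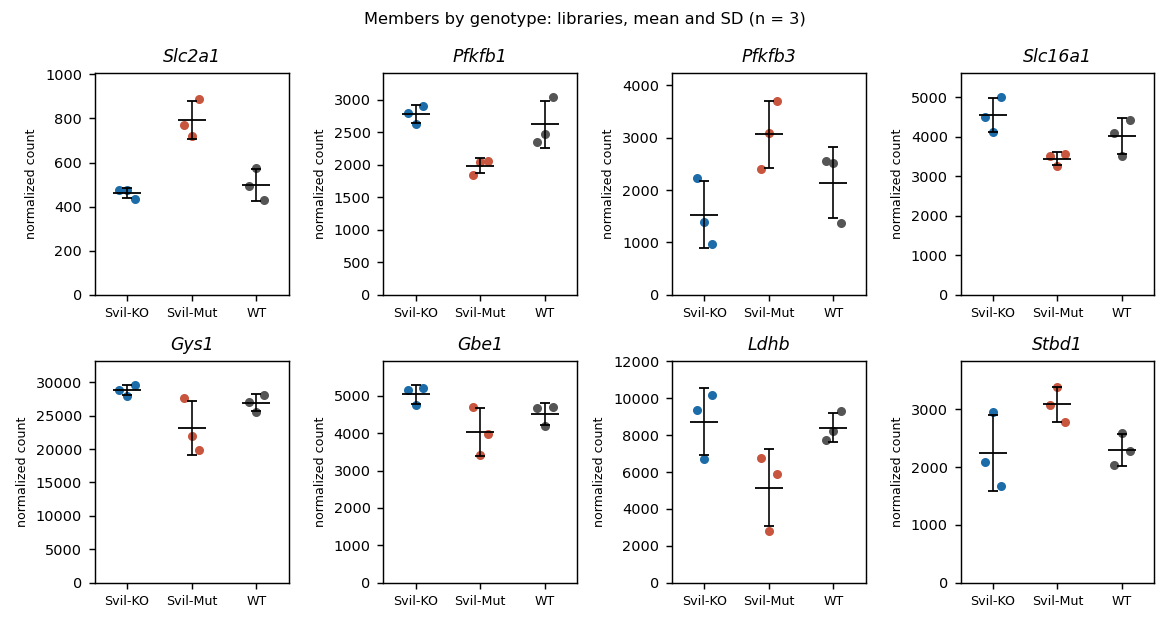
Normalized counts of 8 genes in each library, with the mean (wide bar) and SD (whiskers) of the 3 libraries of each genotype, on axes that start at 0. Slc2a1 is high and Pfkfb1 low in all 3 Svil-Mut libraries, while Gys1, Gbe1 and Ldhb are lower in most Svil-Mut libraries with a wide spread among them.

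Among the genes that build glycogen, Gys1 and Gbe1 had larger fold changes between the altered genotypes than against WT, and none passed the test. Gys1, muscle glycogen synthase (chromosome 7, 45434844 to 45456619, plus strand), had 28868, 27989.8 and 29569.6 in the Svil-KO libraries, 27611, 21964 and 19791 in the Svil-Mut libraries and 27063, 25604 and 28137 in the WT libraries. Every Svil-KO library lay above every Svil-Mut library, and Svil-Mut replicates 2 and 4 were the lowest of the 9, while Svil-Mut replicate 1 lay inside the WT range. Its log2 fold change was 0.33 ± 0.11 in Svil-KO against Svil-Mut (95% interval 0.10 to 0.57, limma adjusted p = 0.346), -0.23 ± 0.11 in Svil-Mut against WT (adjusted p = 0.5) and 0.10 ± 0.11 in Svil-KO against WT (adjusted p = 0.997). The value in Svil-Mut against WT was -0.37 when Svil-Mut replicate 1 was left out and -0.13 when replicate 4 was. Gys1 shares 310 exon bases on the opposite strand with Ruvbl2, which had a mean of 1039, so that overlap is small beside it.

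Gbe1, the glycogen branching enzyme (chromosome 16, 70313949 to 70569716, plus strand), had 5159, 4739.7 and 5201 in the Svil-KO libraries, 4693, 3415 and 3963 in the Svil-Mut libraries and 4673, 4179 and 4701 in the WT libraries. All Svil-KO libraries lay above all Svil-Mut and all WT libraries, though Svil-KO replicate 3 and the highest WT library were close. Its log2 fold change was 0.33 ± 0.11 in Svil-KO against Svil-Mut (limma adjusted p = 0.364) and 0.16 ± 0.11 in Svil-KO against WT (adjusted p = 0.997). Without Svil-Mut replicate 2 the Gbe1 value in Svil-KO against Svil-Mut was 0.22, and without WT replicate 3 that in Svil-KO against WT was 0.10. Ugp2, which makes the UDP-glucose that synthase uses, had 50711, 55486 and 43669 in the Svil-KO libraries, 56269, 42945 and 45551 in the Svil-Mut libraries and 49639, 39997 and 46229 in the WT libraries, with overlap of all 3 groups. Gyg, glycogenin, the protein primer of the particle, ranged over 11080.0 to 13973, and its Svil-KO libraries lay below its Svil-Mut libraries without overlap (-0.17 ± 0.08, limma adjusted p = 0.524).

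No gene of glycogen breakdown passed the test. Pygm, the muscle phosphorylase that frees glucose 1-phosphate, had 370454, 407159 and 354594 in the Svil-KO libraries, 392804, 421485 and 318513 in the Svil-Mut libraries and 378089, 385360.2 and 350709 in the WT libraries. Phka1, the muscle regulatory subunit of phosphorylase kinase, had 34225, 39609 and 34947 in the Svil-KO libraries, 30832, 37819 and 27795 in the Svil-Mut libraries and 35451, 35683 and 34053 in the WT libraries. Both overlapped in every comparison, and Svil-Mut replicate 4 was the lowest library for each. The 95% interval of the log2 fold change of Pygm was -0.21 to 0.26 in Svil-KO against WT and -0.22 to 0.25 in Svil-Mut against WT. Phkb, another regulatory subunit, ranged over 16594 to 22491 and Phkg1, the catalytic subunit of muscle, over 13535 to 18936. The Phkg1 count is uncertain by an amount not measured here. A stretch of at least 100 bases with at least 95% identity to it was found in 18 genes, 0 of them pseudogenes. Their summed mean was 98.7% of its own count, with Actr10 the most abundant at 2715. That sum takes their whole counts, not the reads of the shared stretch. Phkg1 also shares 630 exon bases on the opposite strand with Sumf2, which had a mean of 388. The liver phosphorylase Pygl had 68.2, 68.3 and 31.1 in the Svil-KO libraries, 51.9, 14.3 and 30.3 in the Svil-Mut libraries and 36.1, 36.4 and 25.5 in the WT libraries. At these low counts its Svil-KO replicates 1 and 3 were the highest of the 9 and replicate 4 lay inside the WT range (0.69 ± 0.52 in Svil-KO against WT, limma adjusted p = 0.997). Without Svil-KO replicate 4 the Pygl value was 1.06. The brain phosphorylase Pygb ranged over 109.8 to 356.

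Of the subunits that bring protein phosphatase 1 to glycogen, Ppp1r3c, the subunit PTG, had 13957, 20299.9 and 30569.6 in the Svil-KO libraries, 17593, 35829 and 19574 in the Svil-Mut libraries and 13009, 21685 and 23966 in the WT libraries. It varied more within each genotype than between them, with SDs of 8383, 10006 and 5781 (n = 3 each). Ppp1r3a, the muscle subunit GM, had 21706, 19761 and 19979 in the Svil-KO libraries, 16358, 18056 and 18973 in the Svil-Mut libraries and 19894, 17932 and 17080.0 in the WT libraries. Its Svil-KO libraries lay above its Svil-Mut libraries without overlap (0.20 ± 0.08, limma adjusted p = 0.449) and overlapped with WT (0.16 ± 0.08, adjusted p = 0.997). Ppp1r3d ranged over 37.4 to 141 and Ppp1r3b over 6.68 to 65.3, counts at which the 95% intervals of the log2 fold change were wide (-1.08 to 2.92 for Ppp1r3b in Svil-Mut against WT).

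The genes that handle glycogen in lysosomes or keep it from forming insoluble bodies all had log2 fold changes above 0 in Svil-Mut against WT. So did 7540 of the 15279 tested genes, and none of the genes in this group passed the test. Gaa, the lysosomal acid alpha-glucosidase lost in Pompe disease, had 17914, 19906 and 16295 in the Svil-KO libraries, 21277, 19608 and 19613 in the Svil-Mut libraries and 17002, 17662 and 17585 in the WT libraries. Stbd1, which binds glycogen and has been linked to its delivery to lysosomes, had 2094, 2958 and 1678 in the Svil-KO libraries, 3073, 3392 and 2784 in the Svil-Mut libraries and 2043, 2586 and 2269 in the WT libraries. For both, every Svil-Mut library lay above every WT library, and the Svil-KO libraries overlapped with both. The log2 fold change in Svil-Mut against WT was 0.21 ± 0.08 for Gaa (limma adjusted p = 0.415) and 0.42 ± 0.18 for Stbd1 (adjusted p = 0.458). In Svil-KO against Svil-Mut it was -0.49 ± 0.18 for Stbd1 (adjusted p = 0.408), and -0.30 without Svil-KO replicate 4. The Lafora disease genes Epm2a, which encodes the phosphatase laforin, and Nhlrc1, which encodes the ubiquitin ligase malin, ranged over 702 to 1076 and 288 to 536, with log2 fold changes of 0.19 and 0.33 in Svil-Mut against WT. With 1 library left out these ran from 0.02 to 0.32 for Epm2a and from 0.16 to 0.55 for Nhlrc1.

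Shares within a gene family do not depend on how libraries are scaled. They were tested over 10 families per comparison by exact 2-sided permutation over 3 against 3 libraries, which cannot give a p below 0.1. The shares tested were those of Hk1, Pfkm, Eno1, Pgam1, Ldha, Pfkfb1, Slc2a1, Slc16a1, Pygm and Ppp1r3a. The shares of the other genes of these families were not tested. Pfkfb1 made up 46.6%, 44.9% and 50.3% of the summed Pfkfb level per kilobase in Svil-KO, 33.9%, 34.4% and 34.0% in Svil-Mut and 42.7%, 42.2% and 53.4% in WT. All Svil-Mut libraries lay below all others, with means of 34.1% ± 0.23 in Svil-Mut and 46.1% ± 6.3 in WT (SD, n = 3 each, exact permutation p = 0.1, adjusted over the 10 families 0.5). Against Svil-Mut, the Svil-KO mean was 47.3% ± 2.7 (SD, n = 3, exact permutation p = 0.1, adjusted 0.5). The Pfkfb3 share was 19.7%, 12.5% and 8.92% in Svil-KO, 23.5%, 27.5% and 32.3% in Svil-Mut and 24.5%, 22.7% and 12.8% in WT. It did not overlap between Svil-KO and Svil-Mut, and it was not among the shares tested.

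Ldhb made up 9.11%, 6.17% and 9.99% of the lactate dehydrogenase level per kilobase in Svil-KO, 6.38%, 2.53% and 6.61% in Svil-Mut and 7.40%, 8.05% and 8.95% in WT. The Svil-Mut libraries lay below the WT libraries without overlap, and the complementary Ldha share was 94.8% ± 2.3 in Svil-Mut and 91.9% ± 0.78 in WT (SD, n = 3 each, exact permutation p = 0.1, adjusted 0.5). Of the shares tested in Svil-KO against WT, only the small share of Pgam1 within the mutases did not overlap. It was 0.0763% ± 0.0082 in Svil-KO, against 0.0652% ± 0.0035 in the WT libraries (SD, n = 3 each, exact permutation p = 0.1, adjusted 1). In Svil-KO against Svil-Mut the Pygm share also did not overlap, and it differed by -0.0185 percentage points. At 3 libraries a group, none of these shares can pass a threshold of 0.05.

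**Figure D4:**
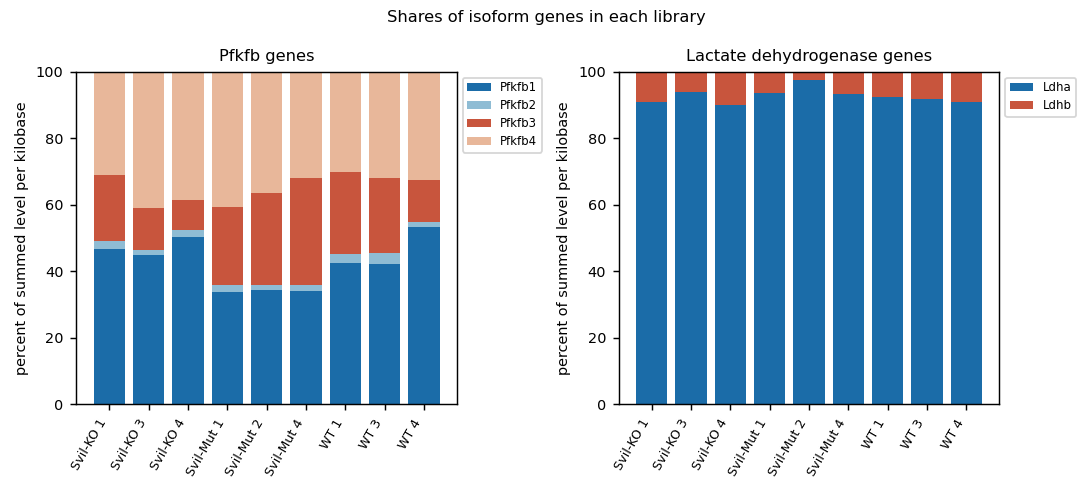
Share of each gene in the summed level per kilobase of its family, in percent, for the 4 Pfkfb genes (left) and the 2 lactate dehydrogenase genes (right), 1 bar per library. The Pfkfb1 share is 33.9% to 34.4% in the 3 Svil-Mut libraries and 42.2% to 53.4% in the others.

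Libraries of 1 genotype varied among themselves, most in Svil-Mut. For the 24 members with a mean of at least 10000, the median coefficient of variation was 8.66% in Svil-KO, 14.7% in Svil-Mut and 4.91% in WT. Over all 437 genes so abundant it was 5.78%, 9.58% and 5.94% in the same order of groups. Svil-Mut replicate 4 was the lowest of the 9 libraries for 14 of those 24 members (58.3%), against 41.0% of all genes so abundant. Svil-KO replicate 3 and Svil-Mut replicate 2 were the highest for 9 each, against 8.70% and 20.4% of all genes so abundant. The summed normalized count of the 45 genes was 2638731, 3022362 and 2645509 in Svil-KO, 2940739, 3098339 and 2462840 in Svil-Mut and 2828503, 2830926 and 2784747 in WT. Svil-Mut replicate 4 was also the library with the highest sums of red blood cell markers (53571) and of leukocyte markers (3083). The leukocyte sum was next highest, at 2640, in Svil-KO replicate 3, a library in which many members were highest. The part of these markers in the low member sum of Svil-Mut replicate 4 was not tested. Without Svil-Mut replicate 4, the median log2 fold change of the 45 genes was 0.12 in Svil-Mut against WT and -0.10 in Svil-KO against Svil-Mut.

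**Figure D5:**
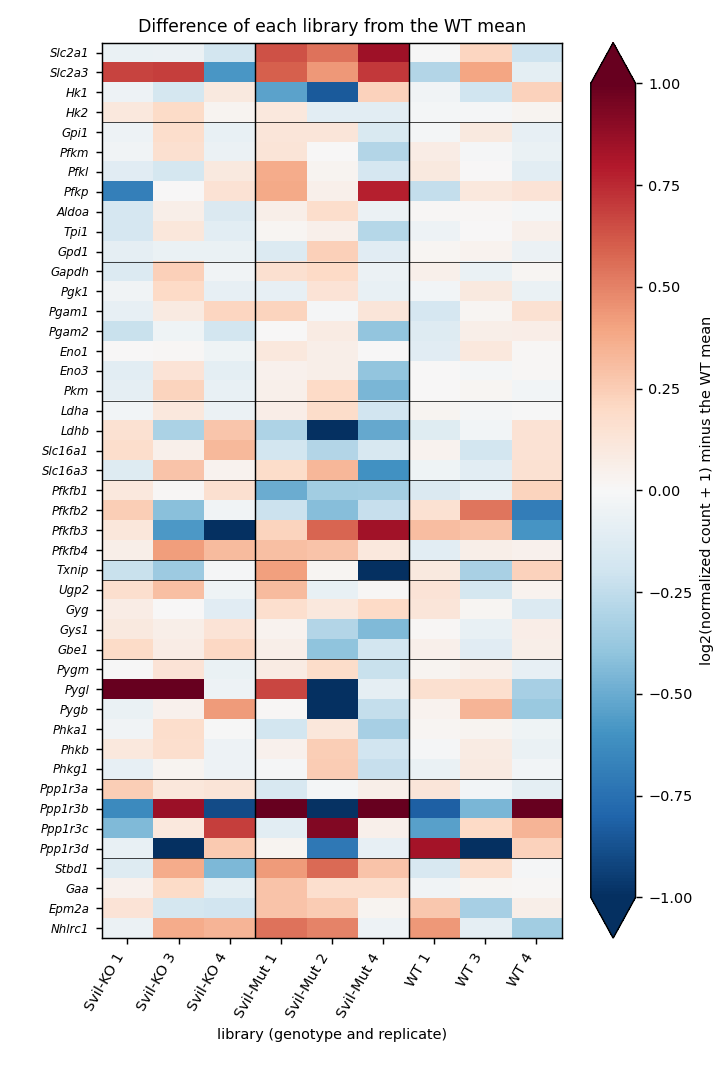
Difference of each library from the WT mean, as log2(normalized count + 1), for the 45 genes in rows and the 9 libraries in columns, with Svil-KO left, Svil-Mut in the middle and WT right. Colours stop at -1 and 1. Slc2a1 is red and Pfkfb1 blue across the 3 Svil-Mut columns, and Svil-Mut replicate 4 is blue for most of the abundant glycolytic enzymes.

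Other genes of glycolysis, glycogen metabolism and their side branches were set beside the 45. Of 72 on the list, 65 passed the filter and 0 were called by limma or edgeR in any comparison. DESeq2 called 0 in Svil-KO against WT (against 0.0262% of all genes) and 0 in Svil-Mut against WT (against 1.13%). In Svil-KO against Svil-Mut it called 3, namely Arrdc4, Gfpt2 and Pdha1 (against 1.54% of all genes). At an unadjusted p under 0.05 these 65 held 1 higher and 2 lower in Svil-KO against WT (4.62%, against 4.11% of all genes), 6 higher and 4 lower in Svil-Mut against WT (15.4%, against 10.03%), and 5 higher and 6 lower in Svil-KO against Svil-Mut (16.9%, against 10.2%). Among the genes with the smallest p in Svil-KO against WT were the transporter Slc2a8 (log2 fold change -0.33 ± 0.12), the inositol transporter Slc2a13 (2.50 ± 1.00) and Slc2a4, the insulin-responsive transporter GLUT4 (0.14 ± 0.07), each with limma adjusted p = 0.997. In Svil-Mut against WT the smallest p belonged to Calm2 (0.37 ± 0.11, limma adjusted p = 0.33), Pdha1 of pyruvate dehydrogenase (-0.27 ± 0.09, 0.351), Gfpt2 of the hexosamine branch (1.39 ± 0.44, 0.351) and the pyruvate carrier Mpc2 (-0.28 ± 0.09, 0.364). In Svil-KO against Svil-Mut they were Arrdc4, the arrestin-like relative of Txnip (-0.68 ± 0.16, limma adjusted p = 0.222), Pdha1 (0.34 ± 0.09, 0.244), Gfpt2 (-1.52 ± 0.44, 0.321) and Bsg, the chaperone of the lactate transporters (-0.30 ± 0.09, 0.325). The phosphoglucomutase Pgm1 lay at 0.02 ± 0.12 in Svil-KO against WT and 0.03 ± 0.12 in Svil-Mut against WT.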

How the data were processed

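Per the labels' protocols, cDNA was made from TA RNA with oligo(dT) priming, amplified at full length and tagmented, which keeps no strand. Per the submitters' processing notes, HISAT2, featureCounts and DESeq2 were used on mm10; the sources used here give no versions and no annotation. The values the authors deposited are a signal: reads per gene over a size factor of the library. Every nonzero value (100%) was a whole multiple of 1 step within 0.001, which gave back whole reads.

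The main test was limma 3.58.1 (R 4.3.3) on log2(normalized count + 1) with a mean-variance trend, genotype as the only factor and all 9 libraries, with Benjamini-Hochberg adjustment over 15279 genes and a threshold of 0.05. Fold changes on this scale understate those of low genes. Alternatives included edgeR 4.0.16 and DESeq2 1.42.0 on the recovered whole reads. The script was tested on simulated data. Exon lengths and coordinates came from GENCODE M21 (GRCm38, matched by symbol, 95.9% of tested genes), promoters from RefSeq GRCm38.p6. The labels say 3 mice per strain; p-values measure the spread between these libraries.

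Per-library values are given for the 8 members with the smallest p in each comparison and the 2 most abundant per role; Slc2a3, Gpd1 and the other members outside this rule, and Pgm1, were chosen after seeing their values, as was leaving out each library in turn for members outside it. Some genes are not reported here. The members, gene lists and rule were chosen with earlier results of these data known. Same-numbered replicates deviated together little (correlations -0.06 to 0.04), so no pairing was used. Between Svil-KO and WT, same-numbered pairs were all slightly positive (0.026 to 0.044) and the others all slightly negative (-0.035 to -0.002).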

Additional observations from a re-analysis of the deposited data

How the results depend on the processing

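For the 24 named fold changes, 499 of 503 values under alternatives kept their direction and side of the threshold. The other 4 were DESeq2 calls. None of the 24 passed in the main fit. Some alternatives cannot change a fold change, such as another variance model or leaving out a library of the genotype not compared. The count is therefore a weak check. Under DESeq2, members called numbered 1 in Svil-Mut against WT (against 1.13% of all genes) and 3 in Svil-KO against Svil-Mut (against 1.54%). Other pathway genes called by it numbered 3 in the last comparison. All genes called in Svil-KO against WT were 4 under DESeq2, against 0 by limma. In Svil-Mut against WT, all genes called were 19 with a pseudocount of 10, 16 with a mean of at least 50, 16 with robust estimation, 14 with only the 2 genotypes fitted, 172 under DESeq2, 20 at an adjusted p of 0.10 and 4 to 18 with 1 library left out. In Svil-KO against Svil-Mut they were 212 under DESeq2, 19 at 0.10 and 4 to 13 with 1 library left out. The cause of these differences was not tested. With 1 library left out, the median log2 fold change of members ran from -0.052 to 0.12 in Svil-Mut against WT and from -0.10 to 0.076 in Svil-KO against Svil-Mut. The ends 0.12 and -0.10 were without Svil-Mut replicate 4. With 1 library left out, the tested family shares whose libraries did not overlap numbered 1 to 3, 2 to 4 and 2 to 5 in the 3 comparisons, since fewer libraries overlap less. With the replicate number as a block, members called were 0 in every comparison and all genes called were 0, 7 and 6; the numbers were not shown to pair the libraries. At 3 libraries a group, low genes such as Ppp1r3b and Pygl limit what could be seen.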
